A study of Mus musculus with 27 samples.

Results

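The mitochondrial fatty acid oxidation and ketone genes are a list of 32 mouse genes, named by symbol, whose products carry fatty acids into mitochondria, break them down and handle ketone bodies. Each gene was followed on the arrays through the probe set annotated to its symbol alone, and where a gene had several such sets, the brightest on average over the 27 arrays stood for it. This gave 30 measured members of the 32, out of 18781 genes in all. Cpt1b, the muscle carnitine palmitoyltransferase, and Acadvl, the very long chain acyl-CoA dehydrogenase, had no probe set of their own, because the sets that hold them also carry Gm44502 and Dvl2, and they were not analysed here.

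Long-chain fatty acids cross into mitochondria as carnitine esters, and are then shortened by repeated rounds of dehydrogenation, hydration, a further dehydrogenation and thiolysis, each round releasing acetyl-CoA. The electrons taken by the first dehydrogenation pass through the electron transfer flavoprotein to ubiquinone. Malonyl-CoA, the building block of fatty acid synthesis, inhibits the entry step. Ketone bodies are made from acetyl-CoA mainly in liver and are burned by other tissues. White fat cells mainly store fatty acids rather than burn them, and PPAR receptors, to which the PPARγ of fat cells belongs, bind elements near many genes of this pathway.

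The samples were mature 3T3-L1 adipocytes, fat cells made in culture from a mouse fibroblast-like line with dexamethasone, insulin and 3-isobutyl-1-methylxanthine, and their RNA was hybridised to Affymetrix Mouse Gene 1.1 ST arrays. The 9 groups of 3 arrays were cells without treatment at time 0 and cells harvested at 8 times, namely 30 min and then 1, 2, 6, 12, 24, 36 and 48 h, into treatment with 1 µM rosiglitazone, an agonist of PPARγ dissolved in DMSO. The design text speaks of cells given DMSO, but none of the 27 samples carries that label, so the cells at time 0 are the control for every harvest, and time in culture, solvent and handling cannot be told apart from the drug. All groups come from 1 cell line, and nothing in the labels tells if replicates came from separate cultures, so a p-value speaks only of array-to-array spread, which may be technical. The study asked how the drug changes adipocyte gene expression over time.

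Values are log2 intensities, on which a difference of 1 is a doubling, and they ran from 1.67 to 13.19 over the table. A change is the difference between 2 group means on this scale, given ± SE with 3 arrays in each group, and a gene rose or fell where limma's adjusted p was below 0.05 among the 18781 genes. The median SE of a member was 0.071 (0.051 to 0.125), and the median over all genes was 0.088. Of the adipocyte markers, 5 of 12 were called higher and 3 lower at 24 h, and 0 higher and 3 lower at 48 h. Among all genes, 10.1% were higher and 10.5% lower at 24 h, and 12.6% and 11.4% at 48 h. Adiponectin, encoded by Adipoq, had a change of 0.11 ± 0.054 at 24 h and -0.09 ± 0.054 at 48 h, neither called, while the fatty acid binding protein Fabp4 was called at 24 h (0.28 ± 0.062), as was the adipogenic factor Cebpa (0.24 ± 0.075). The markers called lower at both times were the receptor gene Pparg, the hormone gene Lep, for leptin, with -1.65 ± 0.239 at 24 h and -1.73 at 48 h, and Retn, for resistin, with -0.16 and -0.20. Preadipocyte and fibroblast markers were called lower for 9 of 13 genes at both times, with Dlk1 at -0.73 ± 0.073, Fn1 at -0.56 ± 0.078, Pdgfra at -0.58 and Col1a2 at -0.43 at 48 h. These marker shifts run beside every late result below and their part in it was not tested, and in bulk RNA fewer cells of a type and less RNA per cell cannot be told apart. Some arrays stood apart over the members. Replicate 1 was the highest of its 3 arrays for 24 of 30 members at 48 h and for 18 at 36 h. It was the lowest for 21 members at 1 h, 18 at 2 h and 21 at 6 h. Replicate 3 was the highest for 17 members at each of 1 h, 2 h and 6 h, as was replicate 2 at 12 h.

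Few members were called in the first hours, and most had risen by 12 h. At 30 min and 1 h no member was called. This compares with 0.0479% of all genes higher and 0% lower at 30 min, and 0.474% and 0.516% at 1 h. At an unadjusted p under 0.05 limma also called 0 members at both times, against 7.92% and 9.79% of all genes. At 2 h, 1 member was called higher, Mlycd (3.04% of all genes higher, 2.87% lower). At 6 h, 11 members were called higher and none lower (8.39% and 8.18% of all genes). At 12 h, 22 were higher and 1 lower (9.48% and 9.38%), and at 24 h, 21 were higher and 1 lower (10.1% and 10.5%). The counts at 36 h were 19 higher and 1 lower (10.9% and 10.5%), and those at 48 h were 20 higher and 3 lower (12.6% and 11.4%).

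**Figure D1:**
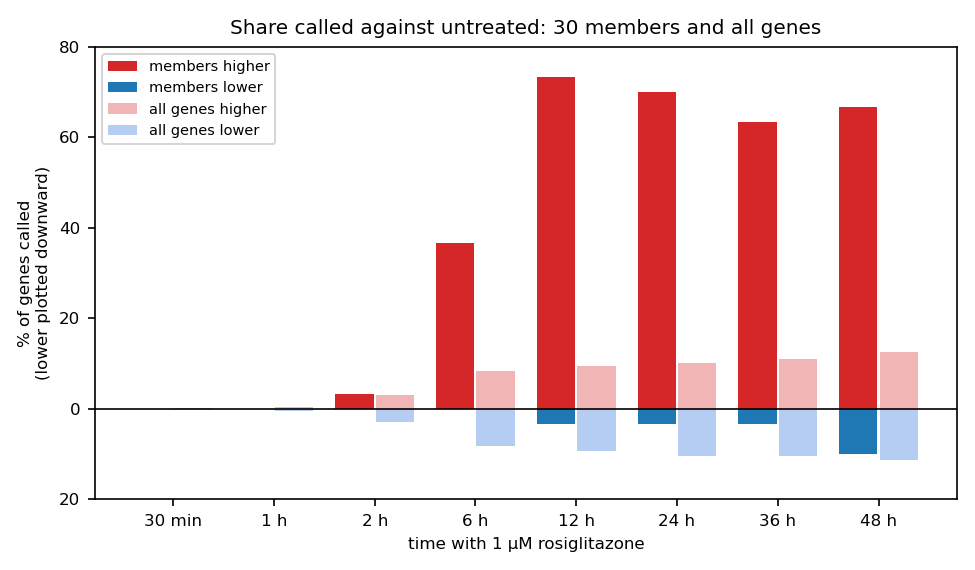
Share of genes called higher (upward) and lower (downward) against untreated cells at each time, in percent, for the 30 measured members (dark bars) and all 18781 genes (pale bars). From 12 h onward 19 to 22 members were higher, while 9.48% to 12.6% of all genes were.

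The changes were small. The median change of the 30 members was 0.14 at 6 h and 0.25 at 12 h, and then 0.30, 0.34 and 0.32 at the 24, 36 and 48 h harvests, while the median of all genes stayed between -0.008 and 0.0133 at those times. A rise of at least 1.5-fold was reached by 1 member at 6 h, by 2 at both 12 h and 24 h, and by 3 at both 36 h and 48 h. These counts speak only of the size of the rises, as the share of all genes at this limit is not given here. In all, 19 members were called higher at each of 12, 24, 36 and 48 h, which holds for 4.86% of all genes. Over the whole course, limma's F-test called 26 of 30 members (40.5% of all genes), and the 4 it did not call were Acad10, Acot2, Acat1 and Bdh1. At 24 h all 3 treated arrays lay above all 3 untreated arrays for 22 members and below them for 1, which held for 17.3% and 17.9% of all genes.

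Leaving out single arrays moved the early counts more than the late ones. The 6 h count of 11 fell to 7 without untreated replicate 3, 7 without 6 h replicate 2 and 5 without 6 h replicate 3. The count at 2 h became 0 without untreated replicate 2 or 3 or any 1 of the 3 arrays at 2 h. Centring each array on its median raised the median of all genes by 0.086 at 6 h and 0.079 at 24 h, and turned the split over all genes to 15.3% higher and 4.7% lower at 6 h and 16.6% and 6.99% at 24 h. With that centring 16 members were higher and 0 lower at 6 h, and 21 were higher and 1 lower at 24 h, and since it moves every gene of an array alike, it leaves a member's distance from the median of all genes as it was.

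**Figure D2:**
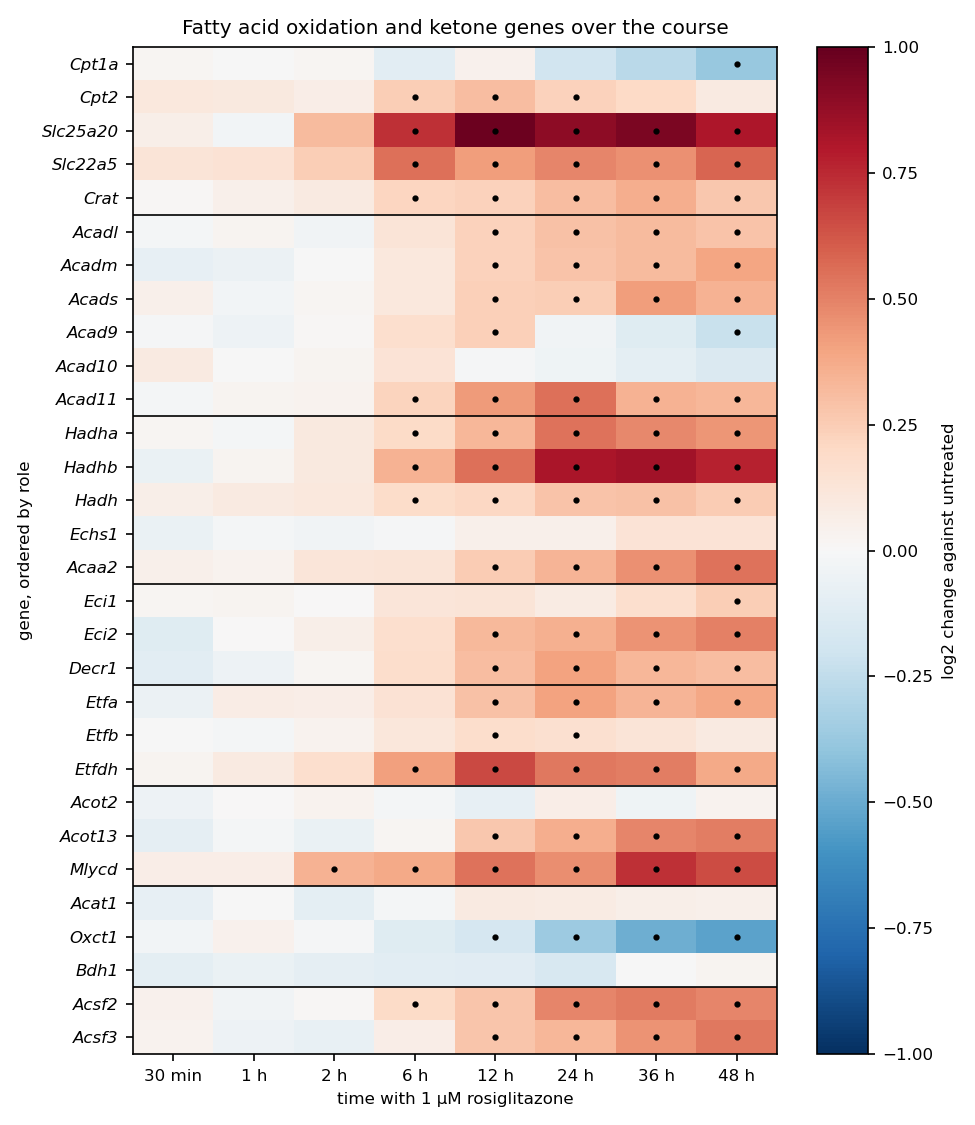
Log2 change against untreated cells of the 30 measured members (vertical, ordered by role, with lines between roles) at the 8 times (horizontal), red for higher and blue for lower, with a dot where limma's adjusted p was below 0.05. Most roles turn red from 6 h or 12 h, while Cpt1a and Oxct1 turn blue late and Acad10, Echs1, Acot2, Acat1 and Bdh1 carry no dot.

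The carnitine shuttle held the largest change of the pathway, though not at Cpt1a, the only measured member of the entry step. Cpt1b, the other entry enzyme listed, had no probe set of its own. Slc25a20, Slc22a5 and Crat were called higher from 6 h to 48 h and Cpt2 from 6 h to 24 h, whereas Cpt1a was called higher at no time. Slc25a20 is the carrier that exchanges acylcarnitine for carnitine across the inner mitochondrial membrane. Its log2 intensities were 7.42, 7.60 and 7.77 in untreated cells, 7.68, 7.68 and 7.61 after 30 min, 7.53, 7.61 and 7.58 after 1 h, and 7.81, 7.91 and 8.01 after 2 h. Later they were 8.17, 8.49 and 8.34 at 6 h, 8.57, 8.66 and 8.52 at 12 h, 8.49, 8.50 and 8.50 at 24 h, 8.77, 8.51 and 8.35 at 36 h, and 8.66, 8.16 and 8.42 at 48 h. All arrays from 2 h onward lay above the untreated ones. The change was 0.31 ± 0.108 at 2 h (limma adjusted p = 0.0992, not called), 0.73 at 6 h and 0.98 at 12 h (adjusted p = 3.65e-07), the highest change of any member, and stayed at 0.81 or above to 48 h. A change of 0.98 is 1.97-fold.

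Slc22a5 encodes OCTN2, the carnitine transporter of the plasma membrane. On the log2 scale the arrays read 7.28, 7.10 and 7.08 in untreated cells, 7.37, 7.27 and 7.22 after 30 min, 7.41, 7.27 and 7.22 after 1 h, and 7.36, 7.42 and 7.41 after 2 h, and 7.65, 7.80 and 7.67 at 6 h, 7.65, 7.53 and 7.55 at 12 h, 7.49, 7.72 and 7.72 at 24 h, 7.46, 7.63 and 7.73 at 36 h, and 7.75, 7.66 and 7.81 at 48 h. No array from 2 h onward overlapped the untreated ones, though the change at 2 h was not called (0.24 ± 0.079, adjusted p = 0.0725), whereas with arrays centred on their medians it was (0.27, 0.0313). It rose by 0.55 ± 0.079 at 6 h (limma adjusted p = 1.79e-05) and by 0.58 at 48 h, with 0.42 to 0.49 in between. On chromosome 11 Slc22a5 lies next to Slc22a21, which in turn lies next to Slc22a4. Slc22a21 and Slc22a4 encode further organic cation and carnitine transporters. At 24 h the change was 0.49 for Slc22a5, 0.27 ± 0.094 for Slc22a21 and -1.13 ± 0.10 for Slc22a4 (adjusted p = 5.41e-09). Slc22a21 thus moved the same way as Slc22a5, and Slc22a4 the opposite way.

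Cpt1a, the outer-membrane palmitoyltransferase that is usually rate limiting and is the target of malonyl-CoA, was described array by array because it departs from the rest, a choice made after its values were seen. The 27 arrays gave 7.81, 8.0 and 8.04 in untreated cells, 7.85, 8.05 and 7.99 after 30 min, 7.77, 7.98 and 8.07 after 1 h, and 7.88, 7.99 and 8.04 after 2 h. Later they were 7.68, 8.04 and 7.80 at 6 h, 8.04, 8.06 and 7.88 at 12 h, 7.76, 7.65 and 7.86 at 24 h, 7.95, 7.56 and 7.52 at 36 h, and 7.91, 7.35 and 7.45 at 48 h. At 36 h and 48 h replicate 1 lay well above the other arrays of its group and within the untreated range. Cpt1a fell by 0.38 on the log2 scale at 48 h (± 0.125, limma adjusted p = 0.0279), with untreated and 48 h arrays overlapping. That call was lost without untreated replicate 2 (adjusted p = 0.0877), untreated replicate 3 (0.107), 48 h replicate 2 (0.172) or 48 h replicate 3 (0.113), and also with each array centred on its median (-0.33, 0.0756) or with the 6 arrays compared alone (0.0667). At 24 h its change was -0.19, with a 95% interval from -0.45 to 0.06. Cpt2, which reforms acyl-CoA inside the mitochondrion, was called at 6 h with 0.24, at 12 h with 0.31, and at 24 h with 0.23 ± 0.071 (adjusted p = 0.02), and stood at 0.09 at 48 h. Its 24 h call was lost without untreated replicate 2 (adjusted p = 0.0651), 24 h replicate 1 (0.0559) or 24 h replicate 3 (0.0583), and with the 30 min arrays as baseline the change was 0.13 (0.218). Crat, the carnitine acetyltransferase that buffers acetyl-CoA, was higher by 0.22 at 6 h and by 0.36 at 36 h.

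**Figure D3:**
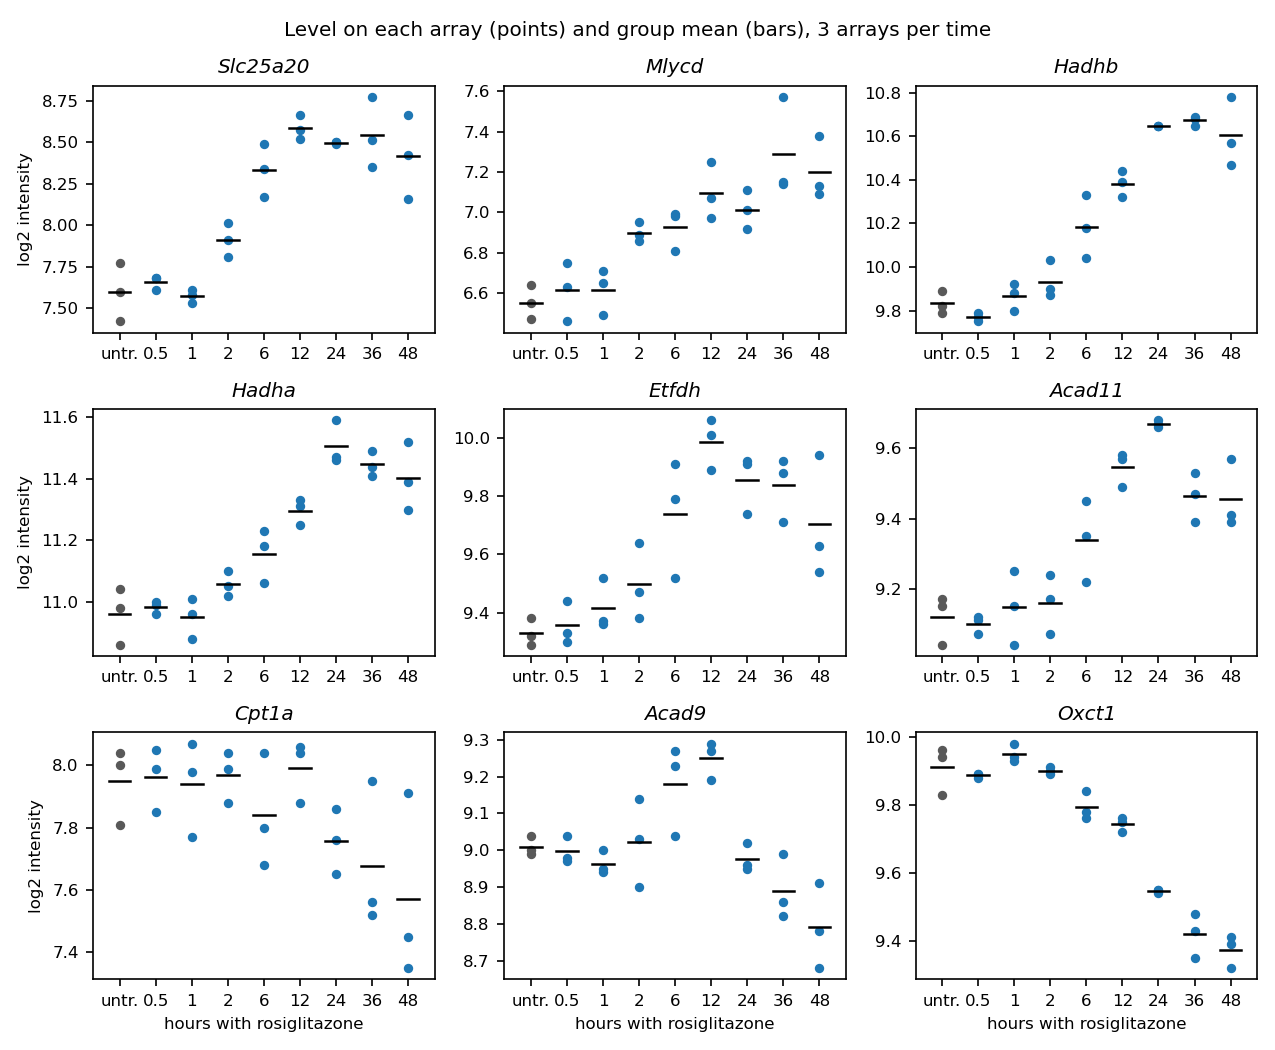
Log2 intensity on each array (points) and group mean (bars) of 9 members against hours with rosiglitazone, with 3 arrays at each time, untreated cells in grey, and a vertical scale of its own in each panel that does not start at 0. Slc25a20, Mlycd, Hadhb, Hadha, Etfdh and Acad11 climb, Oxct1 steps down, Acad9 peaks at 12 h, and the late Cpt1a arrays spread widely.

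Acyl-CoA dehydrogenases take the first pair of electrons from the fatty acid, each with its preferred chain length. Of the 6 measured, 1 was called higher at 6 h, 5 at 12 h and 4 at each of 24 h, 36 h and 48 h. Acad11, which acts on long chains, had log2 intensities of 9.15, 9.17 and 9.04 in untreated cells, 9.12, 9.11 and 9.07 after 30 min, 9.04, 9.15 and 9.25 after 1 h, and 9.17, 9.07 and 9.24 after 2 h. Later values were 9.22, 9.35 and 9.45 at 6 h, 9.58, 9.57 and 9.49 at 12 h, 9.68, 9.67 and 9.66 at 24 h, 9.47, 9.53 and 9.39 at 36 h, and 9.57, 9.39 and 9.41 at 48 h. The 24 h arrays lay closer together than those of any other time and were the highest of the course. Acad11 rose by 0.22 ± 0.070 at 6 h (limma adjusted p = 0.0288), reached 0.55 at 24 h (adjusted p = 1.7e-06), and stood at 0.33 at 48 h. Its difference between 24 h and 48 h was not called (-0.22, adjusted p = 0.118), nor was its 6 h change after a further quantile normalization.

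Acadm, the medium chain dehydrogenase whose loss causes a well known inborn error of fatty acid oxidation in people, had log2 intensities of 11.10, 11.05 and 11.05 in untreated cells, 10.97, 10.95 and 11.01 after 30 min, 11.00, 10.97 and 11.06 after 1 h, and 11.02, 11.01 and 11.15 after 2 h. Its later values were 11.09, 11.19 and 11.24 at 6 h, 11.33, 11.25 and 11.30 at 12 h, 11.47, 11.41 and 11.19 at 24 h, 11.30, 11.49 and 11.35 at 36 h, and 11.49, 11.46 and 11.44 at 48 h. All arrays from 12 h onward were above the untreated ones, with the widest spread at 24 h. Acadm rose by 0.23 ± 0.068 at 12 h (limma adjusted p = 0.0174) and reached 0.40 at 48 h (adjusted p = 7.46e-05). Acadl, for long chains, was higher by 0.23 to 0.32 and Acads, for short chains, by 0.24 to 0.42 between 12 h and 48 h. The 12 h calls of Acadl, Acadm and Acads ended after a further quantile normalization, as did that of Acads at 24 h. The 24 h call of Acads (0.24 ± 0.071, adjusted p = 0.0137) was also lost without untreated replicate 1 (0.0779) or 24 h replicate 3 (0.0571).

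Acad9, best known as an assembly factor of respiratory complex I, took its own course. Its log2 intensities were 9.04, 9.0 and 8.99 in untreated cells, 9.04, 8.98 and 8.97 after 30 min, 8.95, 8.94 and 9.0 after 1 h, and 8.90, 9.03 and 9.14 after 2 h. Later they were 9.04, 9.27 and 9.23 at 6 h, 9.19, 9.27 and 9.29 at 12 h, 9.02, 8.95 and 8.96 at 24 h, 8.99, 8.86 and 8.82 at 36 h, and 8.91, 8.78 and 8.68 at 48 h. The arrays were highest on average at 12 h and lower from 24 h onward, and those at 48 h lay below all untreated arrays. Acad9 rose by 0.24 ± 0.071 at 12 h (limma adjusted p = 0.0182), and fell by 0.22 on the log2 scale at 48 h (adjusted p = 0.0219). The fall from 12 h to 24 h was called as well (-0.27 ± 0.071, adjusted p = 0.0334). The 48 h call was lost without untreated replicate 1 (adjusted p = 0.0653), untreated replicate 2 (0.0511), 48 h replicate 2 (0.059) or 48 h replicate 3 (0.13), and also with arrays centred on their medians (-0.18, 0.108) or with the 6 arrays alone (0.0709). Acad10 was called at no time and lay between -0.15 and 0.14 over the course, though against the 30 min arrays its 48 h change was called (-0.24, adjusted p = 0.033). Acad10 may share probes with its close relative Acad12, so its values are uncertain.

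Most chain-shortening enzymes rose. Of the 5 members with hydratase, hydroxyacyl dehydrogenase or thiolase activity, 3 were called higher at 6 h and 4 at each later time, the exception being Echs1. Hadha and Hadhb encode the α and β subunits of the trifunctional protein, which carries out the remaining steps of each round on long chains. In RefSeq (GRCm38.p6) their starts lie head to head on chromosome 5, 273 bases apart, so that the 250 bases before the start of Hadhb on the plus strand, at chr5:30155003-30155252, also lie upstream of Hadha on the minus strand. The stretch is shown because both genes rose, and it is 58.8% G or C:
Hadhb upstream: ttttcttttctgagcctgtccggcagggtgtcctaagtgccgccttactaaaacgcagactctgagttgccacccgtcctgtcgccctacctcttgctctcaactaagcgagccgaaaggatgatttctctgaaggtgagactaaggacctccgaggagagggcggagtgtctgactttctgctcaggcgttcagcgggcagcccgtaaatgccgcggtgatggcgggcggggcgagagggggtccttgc

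Log2 intensities of Hadhb were 9.89, 9.82 and 9.79 in untreated cells, 9.79, 9.75 and 9.77 after 30 min, 9.80, 9.92 and 9.88 after 1 h, and 9.87, 9.90 and 10.03 after 2 h. Later they were 10.04, 10.18 and 10.33 at 6 h, 10.39, 10.44 and 10.32 at 12 h, 10.65, 10.65 and 10.65 at 24 h, 10.69, 10.68 and 10.65 at 36 h, and 10.78, 10.57 and 10.47 at 48 h. Every array from 6 h onward was above every untreated one, and the 3 arrays at 24 h coincided at the precision given. Hadhb rose by 0.35 ± 0.073 at 6 h and by 0.55 at 12 h. It reached 0.82 at 24 h (limma adjusted p = 6.87e-09) and 0.84, or 1.79-fold, at 36 h. The mean of its pair of probe sets gave 0.83 at 24 h (adjusted p = 4.68e-09). For Hadha the intensities were 10.98, 11.04 and 10.86 in untreated cells, 10.99, 11.00 and 10.96 after 30 min, 10.88, 11.01 and 10.96 after 1 h, and 11.05, 11.02 and 11.10 after 2 h, and then 11.06, 11.18 and 11.23 at 6 h, 11.31, 11.25 and 11.33 at 12 h, 11.47, 11.46 and 11.59 at 24 h, 11.49, 11.41 and 11.44 at 36 h, and 11.52, 11.39 and 11.30 at 48 h. Again no array from 6 h onward overlapped the untreated ones, and the 24 h arrays were the highest on average. Hadha rose by 0.19 ± 0.065 at 6 h (adjusted p = 0.0424, a call that ended after a further quantile normalization) and by 0.54 at 24 h (adjusted p = 6.54e-07). Over the 9 group means, which share the untreated arrays and the array processing, the profile of each was most like that of the other among the members (Pearson r = 0.988). Other pairs of members were about as alike, such as Acadm with Eci2 (0.989) and Acsf2 with Hadhb (0.982).

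Hadh, the hydroxyacyl dehydrogenase for shorter chains, was called from 6 h (0.18 ± 0.051, limma adjusted p = 0.012) and reached 0.29 at 36 h. Acaa2, the mitochondrial thiolase, was called from 12 h (0.26) and reached 0.54 ± 0.067 at 48 h (adjusted p = 8.97e-07), where its 3 arrays ranged from 10.66 to 10.93 against 10.19 to 10.22 in untreated cells. Echs1, the short chain enoyl-CoA hydratase, was called at no time. Its 48 h arrays lay between 10.30 and 10.37 and above the untreated ones at 10.17 to 10.23, with a change of 0.14 ± 0.053 (adjusted p = 0.0623), and this became a call with arrays centred (0.18, adjusted p = 0.0328), with array weights (0.0474), with a trended variance (0.0231), among genes above the median mean (0.0226) and against the 30 min arrays (0.20, 0.0047).

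Auxiliary enzymes prepare unsaturated chains for oxidation. Eci1 and Eci2 are enoyl-CoA isomerases that shift double bonds, and Decr1 is the dienoyl-CoA reductase that removes them. None of the 3 was called at 6 h, Eci2 and Decr1 were called from 12 h to 48 h, and Eci1 was called only at 48 h. Log2 intensities of Eci2 were 8.49, 8.29 and 8.39 in untreated cells, 8.23, 8.33 and 8.26 after 30 min, 8.36, 8.38 and 8.45 after 1 h, and 8.51, 8.43 and 8.42 after 2 h. Later they were 8.54, 8.51 and 8.63 at 6 h, 8.64, 8.79 and 8.72 at 12 h, 8.72, 8.82 and 8.70 at 24 h, 8.87, 8.83 and 8.83 at 36 h, and 8.92, 8.90 and 8.86 at 48 h. From 6 h all arrays were above the untreated ones, and the 36 h and 48 h arrays were above all earlier arrays. Eci2 rose by 0.33 ± 0.060 at 12 h (limma adjusted p = 0.000291) and then stood at 0.50 at 48 h (adjusted p = 5.65e-07). It may share probes with its close copy Eci3.

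Decr1 had log2 intensities of 9.68, 9.70 and 9.67 in untreated cells, 9.60, 9.53 and 9.62 after 30 min, 9.56, 9.66 and 9.69 after 1 h, and 9.65, 9.71 and 9.77 after 2 h. Its later values were 9.75, 9.84 and 10.00 at 6 h, 9.95, 10.02 and 10.01 at 12 h, 10.12, 10.12 and 10.04 at 24 h, 10.09, 10.04 and 9.93 at 36 h, and 10.18, 9.96 and 9.85 at 48 h. The 24 h arrays were the highest on average, and the 48 h arrays spread from the top of the course down to near the 6 h level. Decr1 rose by 0.31 ± 0.074 at 12 h (limma adjusted p = 0.00349) and by 0.40 at 24 h. Eci1 rose by 0.24 ± 0.067 at 48 h (adjusted p = 0.00826). Without 48 h replicate 1, the highest array, Eci1 stood at 0.17 and was not called (adjusted p = 0.0853), nor was it with the 6 arrays alone (0.0722).

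All 3 genes of electron transfer to ubiquinone were called higher at the 12 h harvest. Etfdh is the membrane oxidoreductase that passes the electrons to ubiquinone, and Etfa and Etfb are the subunits of the flavoprotein that feeds it. Etfdh had log2 intensities of 9.38, 9.29 and 9.32 in untreated cells, 9.33, 9.30 and 9.44 after 30 min, 9.37, 9.36 and 9.52 after 1 h, and 9.38, 9.47 and 9.64 after 2 h. Later they were 9.52, 9.79 and 9.91 at 6 h, 10.01, 10.06 and 9.89 at 12 h, 9.92, 9.91 and 9.74 at 24 h, 9.88, 9.92 and 9.71 at 36 h, and 9.94, 9.63 and 9.54 at 48 h. The values peaked at 12 h, and at 48 h replicate 1 stayed near that peak while the other arrays were lower. Etfdh rose by 0.41 ± 0.099 at 6 h (limma adjusted p = 0.00417), peaked at 0.66 at 12 h (adjusted p = 2.42e-05) and was 0.38 above untreated at 48 h. Without 48 h replicate 1 the last of these was 0.26 and was not called (adjusted p = 0.0694).

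Etfa had log2 intensities of 9.56, 9.46 and 9.52 in untreated cells, 9.48, 9.40 and 9.47 after 30 min, 9.49, 9.58 and 9.70 after 1 h, and 9.56, 9.57 and 9.61 after 2 h. Later values were 9.56, 9.61 and 9.81 at 6 h, 9.84, 9.86 and 9.71 at 12 h, 9.97, 9.91 and 9.85 at 24 h, 9.79, 9.92 and 9.84 at 36 h, and 10.00, 9.95 and 9.74 at 48 h. All arrays from 12 h onward lay above every untreated array. Etfa rose by 0.29 ± 0.075 at 12 h (limma adjusted p = 0.00614) and by 0.40 at 24 h. Etfb had the smallest changes of the 3, called at 12 h (0.18 ± 0.056, adjusted p = 0.0279) and, with 0.16, at 24 h (adjusted p = 0.0462). The 24 h call of Etfb was lost without any 1 of the 6 arrays compared, with adjusted p from 0.0655 to 0.158, as well as with the 6 arrays alone (0.121), with the replicate block (0.0797) and after a further quantile normalization (0.13, 0.078).

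Among the thioesterases and the malonyl-CoA decarboxylase, Mlycd was the member called at 2 h. Mlycd breaks down malonyl-CoA, the inhibitor of Cpt1a. On the log2 scale its arrays read 6.47, 6.55 and 6.64 in untreated cells, 6.75, 6.63 and 6.46 after 30 min, 6.49, 6.65 and 6.71 after 1 h, and 6.86, 6.89 and 6.95 after 2 h. Later they were 6.81, 6.99 and 6.98 at 6 h, 6.97, 7.25 and 7.07 at 12 h, 6.92, 7.01 and 7.11 at 24 h, 7.57, 7.14 and 7.15 at 36 h, and 7.38, 7.09 and 7.13 at 48 h. The arrays at 2 h already lay above all untreated ones, and replicate 1 at 36 h was the highest of the course. Mlycd rose by 0.35 ± 0.105 at 2 h (limma adjusted p = 0.0467), by 0.54 at 12 h and by 0.73 at 36 h (adjusted p = 8.2e-06). The 2 h call ended with arrays centred on their medians (adjusted p = 0.0557) and after a further quantile normalization (0.0797), and with centring Slc22a5 was the member called at 2 h in its place.

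Acot13 is a thioesterase that frees fatty acids from acyl-CoA. The arrays gave log2 intensities of 6.56, 6.46 and 6.38 in untreated cells, 6.35, 6.28 and 6.50 after 30 min, 6.59, 6.42 and 6.32 after 1 h, and 6.36, 6.39 and 6.45 after 2 h. Later values were 6.43, 6.39 and 6.64 at 6 h, 6.67, 6.91 and 6.63 at 12 h, 6.76, 6.87 and 6.87 at 24 h, 6.91, 6.96 and 7.00 at 36 h, and 7.04, 7.01 and 6.89 at 48 h. They overlapped the untreated arrays up to 6 h and not from 12 h onward. Acot13 rose by 0.27 ± 0.084 at 12 h (limma adjusted p = 0.0271) and reached 0.51 at 48 h (adjusted p = 5.02e-05). Acot2, a mitochondrial thioesterase, was called at no time and had changes between -0.08 and 0.07, and it may share probes with its near copy Acot1.

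Of the 3 ketone body enzymes, none was called higher at any time, and Oxct1 fell. Oxct1 encodes SCOT, the enzyme that activates acetoacetate so that it can be burned. Its arrays read, in log2 units, 9.96, 9.94 and 9.83 in untreated cells, 9.89, 9.88 and 9.89 after 30 min, 9.98, 9.94 and 9.93 after 1 h, and 9.89, 9.90 and 9.91 after 2 h. Later they were 9.76, 9.78 and 9.84 at 6 h, 9.72, 9.75 and 9.76 at 12 h, 9.55, 9.55 and 9.54 at 24 h, 9.35, 9.48 and 9.43 at 36 h, and 9.41, 9.32 and 9.39 at 48 h. From 12 h all treated arrays lay below the untreated ones, with no overlap between the 12 h, 24 h and 36 h arrays. Oxct1 fell by 0.17 on the log2 scale at 12 h (± 0.052, limma adjusted p = 0.024), by 0.36 at 24 h (adjusted p = 9.76e-06), by 0.49 at 36 h and by 0.54 at 48 h (adjusted p = 2.03e-08), a fold of 0.69. The call at 12 h ended with arrays centred on their medians (-0.11, adjusted p = 0.189). Its fall from 12 h to 24 h was itself called (-0.19 ± 0.052, adjusted p = 0.0386).

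Acat1, the mitochondrial acetoacetyl-CoA thiolase, had log2 intensities of 10.06, 10.03 and 10.11 in untreated cells, 9.94, 9.98 and 10.04 after 30 min, 10.09, 10.02 and 10.08 after 1 h, and 9.93, 10.01 and 9.96 after 2 h. Later they were 9.96, 10.05 and 10.14 at 6 h, 10.13, 10.27 and 10.08 at 12 h, 10.18, 10.16 and 10.12 at 24 h, 10.11, 10.14 and 10.12 at 36 h, and 10.29, 10.03 and 10.04 at 48 h. The treated arrays ran from below to above the untreated range, and those at 24 h lay just above it. Its change was 0.08 at 24 h, with a 95% interval from -0.06 to 0.22 (limma adjusted p = 0.466), and 0.05 at 48 h (adjusted p = 0.649). Bdh1, the β-hydroxybutyrate dehydrogenase of the mitochondrion, lay near the low end of the scale, with 3.00 to 3.24 on untreated arrays, 2.89 to 3.02 at 24 h and 3.12 to 3.16 at 48 h. Its changes of -0.16 at 24 h and 0.03 at 48 h were not called (adjusted p = 0.122 and 0.826).

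Both mitochondrial acyl-CoA synthetases rose. Acsf2 activates medium chain acids, and its log2 intensities were 9.83, 9.90 and 9.84 in untreated cells, 9.93, 9.94 and 9.82 after 30 min, 9.75, 9.86 and 9.85 after 1 h, and 9.87, 9.86 and 9.88 after 2 h. Later they were 10.03, 10.03 and 10.08 at 6 h, 10.17, 10.06 and 10.17 at 12 h, 10.30, 10.35 and 10.38 at 24 h, 10.49, 10.31 and 10.33 at 36 h, and 10.32, 10.38 and 10.35 at 48 h. All arrays from 6 h onward were above the untreated ones, and those from 24 h onward were above those of 12 h. Acsf2 rose by 0.19 ± 0.058 at 6 h (limma adjusted p = 0.0258, ended by a further quantile normalization), by 0.49 at 24 h and by 0.52 at 36 h (adjusted p = 2.33e-07). With the mean of its pair of probe sets the change at 24 h was 0.48 (adjusted p = 1.05e-06).

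Acsf3 activates malonate in mitochondria. Log2 intensities on its arrays were 7.12, 7.10 and 7.25 in untreated cells, 7.17, 7.26 and 7.14 after 30 min, 7.16, 7.04 and 7.11 after 1 h, and 7.04, 7.12 and 7.09 after 2 h. Later values were 7.24, 7.24 and 7.19 at 6 h, 7.28, 7.46 and 7.55 at 12 h, 7.56, 7.59 and 7.32 at 24 h, 7.71, 7.52 and 7.60 at 36 h, and 7.69, 7.65 and 7.72 at 48 h. They lay above the untreated arrays from 12 h onward and were highest at 48 h on average. Acsf3 rose by 0.27 ± 0.074 at 12 h (limma adjusted p = 0.00927), and the rise at 48 h was 0.53 (adjusted p = 5.36e-06).

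Comparing harvests with each other, without the untreated arrays, showed when the levels moved. Between 2 h and 6 h, 3 members were called higher and 0 lower (4.27% and 4.89% of all genes): Slc25a20 (0.42 ± 0.108), Slc22a5 (0.31) and Hadhb (0.25). This count became 0 without 2 h replicate 1 or 6 h replicate 2 and 5 without 6 h replicate 1. Between 6 h and 12 h limma called 0 members in either direction (0.564% and 0.607%). Still, 8 had an unadjusted p under 0.05, all higher at 12 h, beside 12.6% of all genes in either direction. Between 12 h and 24 h, Hadhb (0.27) and Acsf2 (0.21) were higher and Acad9 and Oxct1 lower (1.27% and 1.66%), 4 calls in all, and leaving out any 1 array of either time gave at most 1 call. Between 24 h and 36 h and between 36 h and 48 h limma called 0 members (0.0532% higher and 0.101% lower, then 0.0106% and 0.00532%). At an unadjusted p under 0.05 the counts were 5 and 0, beside 10.7% and 9.59% of all genes. From 24 h to 48 h limma likewise called 0 members (0.713% and 0.745%). There 8 members had an unadjusted p under 0.05, beside 14.8% of all genes.

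Over the longer step from 6 h to 24 h, 10 members were called higher and 1 lower (5.51% and 6.02% of all genes). The 10 were Hadhb, Hadha, Acot13, Acad11, Acsf2, Acsf3, Etfa, Decr1, Acaa2 and Eci2, and Oxct1 was the gene called lower. The total of 11 became 6 without 6 h replicate 2, 24 h replicate 1 or 24 h replicate 2. Shuttle genes that had risen by 6 h showed no called difference between these harvests: Slc25a20 stood at 0.16 ± 0.108 and Slc22a5 at -0.07 ± 0.079, neither called. A contrast of 24 h and 48 h against 12 h and 36 h, which looks for alternation between harvests 12 h apart, called 0 members higher and 1 lower (1.05% and 1.24% of all genes), Acad9 at -0.19 ± 0.050 (limma adjusted p = 0.0466). That call was lost when replicate 1, 2 or 3 of every group was left out.

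**Figure D4:**
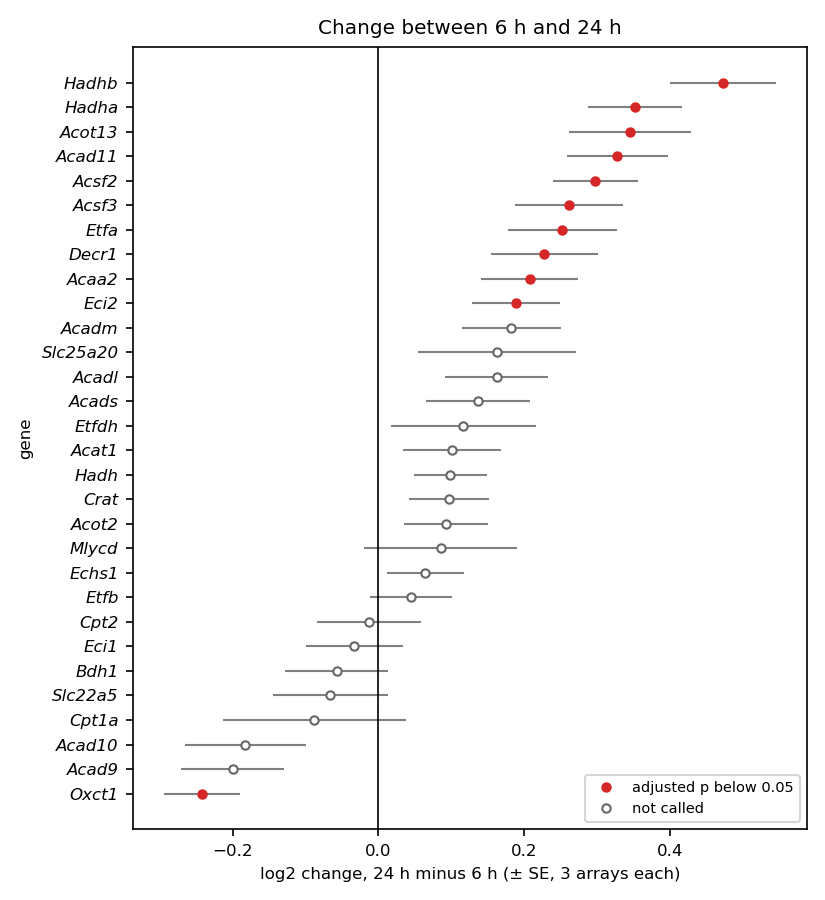
Log2 difference between 24 h and 6 h (24 h minus 6 h, horizontal) with its SE for the 30 measured members (vertical), with filled points where limma's adjusted p was below 0.05. The trifunctional subunits Hadhb and Hadha lead at 0.47 and 0.35, and Oxct1 is lowest at -0.24.

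Time courses of most members resembled one another. As a description over the 9 group means, which share the untreated arrays and were processed together, the median correlation of 435 pairs of members was 0.795 and 73.1% of pairs were above 0. The same was not computed over all genes, so whether other genes that rise over time are as alike cannot be told. Acadm was most like Eci2 (r = 0.989), Crat most like Hadh (0.984), and Etfb most like Etfdh (0.982). Oxct1 ran opposite to most members, with -0.978 against Acaa2, and its nearest member was Cpt1a (0.923). Acot2 and Bdh1 resembled no member closely, with nearest values of 0.207 and 0.496. Of the 23 members called higher at any time, 5 stood highest at 12 h and 4 at 24 h, while 36 h and 48 h were the highest harvests of 7 each.

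RefSeq promoters (GRCm38.p6), each reaching from 250 bases before to 50 after a start, were found for 24 of the 30 measured members, with 25 promoters in all. They were searched on both strands for the element that PPAR and RXR bind as a pair, a direct repeat of AGGTCA with 1 base between the copies, for TCAAGGTCA, the element of the estrogen-related receptors, and for a single AGGTCA, which both of these contain. The repeat with up to 2 mismatches was in 3 member promoters, or 12% of 25, and in 3.861% of 32841 promoters. With at most 1 mismatch it was in none, against 0.5542% of all promoters, and without mismatch in none, against 0.0396%. TCAAGGTCA was in none, against 0.4233%, and AGGTCA alone in 12% (Acadm, Cpt1a and Echs1), against 16.2571%. A match is letters only, and elements that act from farther away lie outside this window. The 3 matches to the repeat are shown to let its letters be compared, in capitals and read along the gene's strand, for Echs1 (chr7:140116472-140116524, minus strand), Etfa (chr9:55512288-55512340, minus strand, repeat on the opposite strand) and Slc25a20 (chr9:108662142-108662154, plus strand, 6 to 18 bases after the start):
Echs1: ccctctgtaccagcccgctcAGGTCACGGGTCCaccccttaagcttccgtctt
Etfa: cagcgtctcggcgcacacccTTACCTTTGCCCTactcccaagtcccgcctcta
Slc25a20: AGGTGAAAGGTCG
Of these genes Slc25a20 had the highest change of the pathway, Etfa rose from 12 h, and Echs1 was called at no time.

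Transcriptional regulators of oxidation were called in both directions from 2 h. Of 21 regulators, 5 were called higher and 3 lower at 2 h, 10 and 5 at 12 h, and 12 and 4 at 24 h. The shares of all genes were 3.04% and 2.87% at 2 h, 9.48% and 9.38% at 12 h, and 10.1% and 10.5% at 24 h. Ppargc1b, a coactivator of mitochondrial genes, rose by 0.73 ± 0.085 at 2 h (limma adjusted p = 2.29e-06) and stood at 0.87 at 24 h. Its relative Ppargc1a was called from 12 h (0.68) and reached 0.93 ± 0.136 at 48 h, and Esrra, a receptor that works with both, was called from 12 h and stood at 0.43 at 36 h. Ppara, the PPAR of oxidative tissues, rose at 24 h (0.66 ± 0.155, adjusted p = 0.00271) and stood at 1.01 at 48 h. Sirt3, the main deacetylase of mitochondrial enzymes, reached 0.72 at 36 h, and Tfam, which maintains mitochondrial DNA, reached 0.62. Pparg, the receptor of the drug, was lower at every harvest from 2 h (-0.63 ± 0.049) to 48 h (-0.30).

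The gates that set the supply of fuel included the steepest rise seen among the genes listed here. Of 11 measured genes of the malonyl-CoA and pyruvate gates, 5 were called higher and 1 lower at 24 h, and 6 and 2 at 48 h. Over all genes the shares were 10.1% and 10.5% at 24 h, and 12.6% and 11.4% at 48 h. Pdk4, the kinase that shuts off pyruvate oxidation, rose by 0.83 ± 0.107 at 1 h (limma adjusted p = 5.52e-05) and by 2.05 at 48 h, and Pdk2 reached 0.80. Acacb, which makes the malonyl-CoA that acts on Cpt1a, was called from 24 h (0.51 ± 0.081) and stood at 0.60 at 48 h, while Acaca, which makes it for fatty acid synthesis and is named here after its values were seen, fell by 0.25 on the log2 scale at 48 h. Ucp3, a mitochondrial carrier linked to fatty acid use, peaked at 2 h (0.89 ± 0.101, adjusted p = 1.42e-06) was not called at 12 h (0.19), and was called again from 24 h (0.38) to 48 h (0.65).

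**Figure D5:**
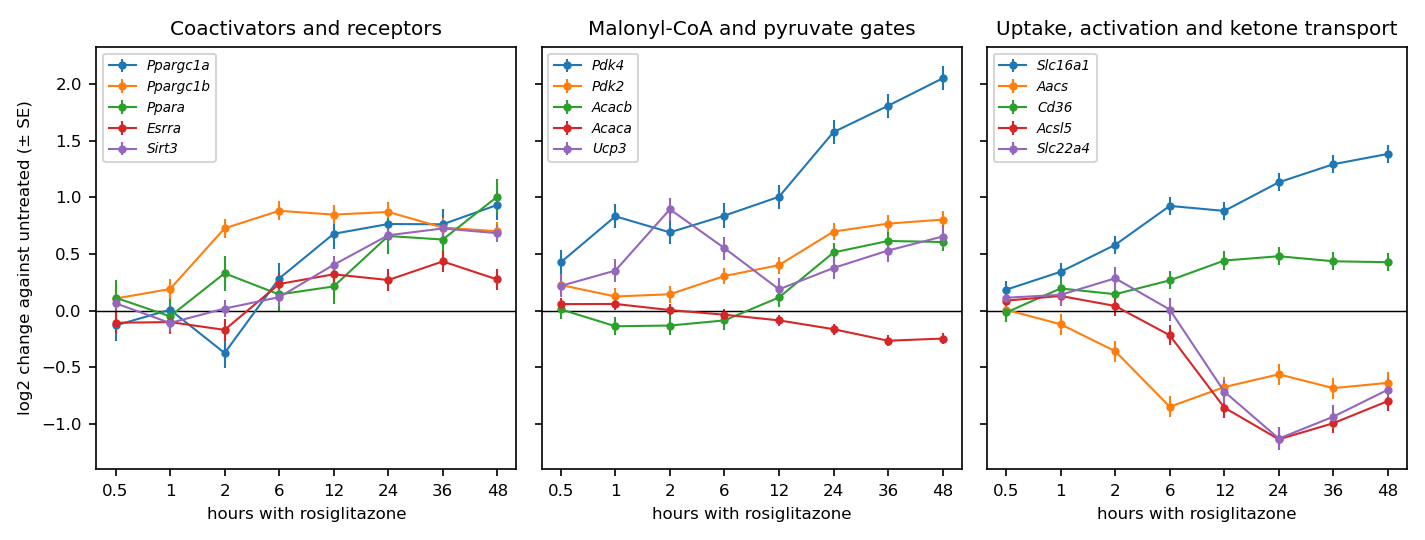
Log2 change against untreated cells with its SE (vertical) at hours with rosiglitazone (horizontal, evenly spaced harvests) for genes around the pathway, with 3 arrays at each time and 1 line per gene. Pdk4 climbs to 2.05 and Slc16a1 to 1.38 at 48 h, while Acsl5 and Slc22a4 are lowest at 24 h, at -1.14 and -1.13.

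Upstream of the mitochondrion, 4 of 13 measured genes of fatty acid entry and activation were called higher and 3 lower at 24 h. Among all genes, 10.1% were higher and 10.5% lower. Cd36, which takes up fatty acids, was called from 6 h and stood at 0.48 ± 0.081 at 24 h, and Acsl5, a long chain acyl-CoA synthetase, fell by 1.14 on the log2 scale (± 0.088, limma adjusted p = 6.95e-10). The synthetases Acsl1 and Acsl3, also on this list, are named because no probe set was annotated to them alone, so they were not measured. Cpt1c, the brain form of the entry enzyme, fell by 0.35. Among 7 measured genes of ketone synthesis, transport and cytosolic use, 1 was called higher and 2 lower at 24 h, beside the same shares of all genes. Slc16a1 encodes MCT1, which carries lactate and ketone bodies across the plasma membrane, and it rose from 1 h (0.34 ± 0.079, adjusted p = 0.0293) to 1.38 at 48 h. Aacs, which uses acetoacetate for lipid synthesis in the cytosol, fell by 0.85 at 6 h, and Bdh2 fell by 0.51 at 24 h. Bdh2 was dim, with a mean of 4.16 over all arrays, below the median gene mean of 4.76. Slc16a6, a ketone body exporter in zebrafish liver, was called at 12 h (0.29) and at no other time.

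Other enzymes of acyl-CoA and carnitine metabolism, many of them of amino acid and odd chain breakdown and not all mitochondrial, moved both ways. Of 22 measured, 5 were called higher and 5 lower at 24 h (10.1% and 10.5% of all genes). At 48 h, 7 were higher and 5 lower (12.6% and 11.4%). Their median change was -0.01 at 24 h, beside 0.30 for the members. Ivd, the isovaleryl-CoA dehydrogenase of leucine breakdown, fell by 0.58 on the log2 scale at 48 h (± 0.060, limma adjusted p = 6.26e-08). Echdc1, which breaks down ethylmalonyl-CoA, a side product of fatty acid synthesis, rose by 0.69 at 24 h, Aldh9a1, an enzyme of carnitine synthesis, by 0.53 at 24 h, and Pcca, a subunit of propionyl-CoA carboxylase, by 0.41 at 48 h.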

How the data were processed

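RNA from 27 samples of 3T3-L1 adipocytes was measured, 1 array each, in 9 groups of 3 taken from the labels. The deposited table holds log2 intensities for 28815 probe sets. Per the submitters' processing notes, the authors used Partek software and RMA, which subtracts background, equalises arrays and combines the probes of a set, with versions and the role of each not given in the sources used here. RMA makes arrays alike in distribution, so a shift of most genes would be hidden.

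The platform annotation named 23020 probe sets, 21153 of them with 1 symbol and 1867 with several. Of the sets with 1 symbol, 21123 were found in the reference gene table by Entrez identifier, none with a changed symbol. Sets with several symbols or none (5795) were left out. A gene with several sets was represented by the one with the highest mean, which gave 18781 genes. Dim genes were kept. Medians over all probe sets lay between 4.022 and 4.127, and no pair of arrays was identical. The number of arrays limits the precision.

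The fit used limma 3.58.1 under R 4.3.3, with lmFit on group means and eBayes, over all 27 arrays without covariates. P-values are two-sided and were adjusted by Benjamini-Hochberg over all genes of a comparison, and the threshold was 0.05. The code was tested on simulated data. Tables and plots used Python 3.11.15, pandas 2.3.3, numpy 2.4.6 and matplotlib 3.10.9.

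The members, the lists of related genes and the tests were chosen with earlier results of these data known. All members are named. Values of every array are given for up to 2 members of each role with the smallest F-test p and for every member called both higher and lower. Of each list of related genes, up to 4 genes with the smallest F-test p are named, plus Ppara, Ppargc1a, Ppargc1b, Esrra, Pdk4, Acacb, Ucp3, Cpt1c, Adipoq and Fabp4. The text marks any gene named otherwise. No list was tested as a set.

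Arrays with the same replicate number were not more alike than others, so no pairing was used. Deviations from group means of 108 same-number pairs of arrays had a median correlation of -0.126 (-0.445 to 0.142). For 216 pairs with other numbers it was 0.051, and 0 of 27 arrays were closest to their own number. What lies behind the lower value of same-number pairs was not tested. Promoter sequences are those of RefSeq (GRCm38.p6). Protein sequences were not analysed here. Alternatives were a block for the replicate number, only the genes with a mean above the median of 4.76, averaging a gene's probe sets, centring arrays on their medians, quantile normalising once more, array weights, a variance trend with robust estimation, a minimum change of 1.5-fold, a threshold of 0.01, the 6 arrays compared alone, the 30 min arrays as baseline, and leaving out arrays.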

Additional observations from a re-analysis of the deposited data

Results flagged for a closer look

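For 11 members the effect against untreated cells differed between 6 h and 24 h when the 2 harvests were compared directly. The difference, 24 h minus 6 h on the log2 scale with limma's adjusted p, was 0.47 for Hadhb (7.96e-05) and 0.35 for Hadha (0.000517), the subunits of the trifunctional protein. It was 0.35 for the thioesterase Acot13 (0.00687) and 0.33 for the dehydrogenase Acad11 (0.00213). The acyl-CoA synthetases stood at 0.30 for Acsf2 (0.000959) and 0.26 for Acsf3 (0.0197). The flavoprotein subunit Etfa stood at 0.25 (0.0265), the reductase Decr1 at 0.23 (0.0444), the thiolase Acaa2 at 0.21 (0.0438) and the isomerase Eci2 at 0.19 (0.0415). Oxct1, the enzyme that activates acetoacetate, was the member whose effect moved down, with -0.24 (0.00235).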

How the results depend on the processing

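For single members the minimum of 1.5-fold and the threshold of 0.01 were not applied, and no called value reversed under the other alternatives: of 538 values at 24 h and 48 h, 522 kept their call, 10 lost one and 6 gained one, and of 540 with arrays left out, 492 kept it and 48 lost it. Counts of called members held within 1.5 times except as follows. At 2 h the count of 1 became 0 with the replicate block, after a further quantile normalization, at a minimum of 1.5-fold, at a threshold of 0.01 and with the 30 min arrays as baseline, and 2 with genes above the median mean or with array weights. A minimum of 1.5-fold left 1 at 6 h, 2 at both 12 h and 24 h and 3 at both 36 h and 48 h, and 0 in the steps from 2 h to 6 h, from 12 h to 24 h and from 6 h to 24 h and in the alternation contrast. A threshold of 0.01 left 5 at 6 h, 6 for 24 h against 6 h, and 0 for 6 h against 2 h, 24 h against 12 h and the alternation. Using the 6 arrays compared alone gave 6 at 6 h, 6 for 24 h against 6 h and 0 for 24 h against 12 h. Centring arrays gave 5 for 6 h against 2 h, 7 for 24 h against 6 h, and 0 for 24 h against 12 h and the alternation. The replicate block gave 0 for 24 h against 12 h and the alternation and changed no other count by over 1.5 times except that at 2 h. Genes above the median mean gave 5 for 6 h against 2 h, 2 for the alternation and 1 for 48 h against 24 h, a trended variance 2 and 1 for the last pair, array weights 2 and 1 and also 1 for 36 h against 24 h, and a further quantile normalization 1 for 48 h against 24 h. Leaving out arrays gave 0 to 2 calls at 2 h, 2 to 11 for 6 h, 7 to 20 for 12 h, 15 to 21 for 24 h, 16 to 21 for 36 h, 17 to 22 for 48 h, 0 to 5 for 6 h against 2 h, 0 to 1 for 24 h against 12 h, 2 to 10 for 24 h against 6 h, 20 to 23 over the course and 0 to 0 for the others. The low ends at 12 h and later came without replicate 2 of every group. The cause of these moves was not tested beyond the fewer arrays or stricter limits that the settings impose, and the number of arrays limits the precision.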
